A study of Homo sapiens with 4 samples.

Results

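The exons described here are the balanced cassette exons with junction reads in MDA-LM2 cells depleted of SNRPB2. A cassette exon is an internal exon that is either kept in the mRNA or skipped, and ψ is the fraction of a gene's transcripts in the event that keep it. An exon was taken as balanced where the mean ψ of the siSNRPB2 and siCtrl files lay between 0.2 and 0.8. It also had to have at least 40 reads that fitted only inclusion and at least 40 that fitted only exclusion, summed over both files; these are the inclusion and skipping reads of the text below. Of 34037 skipped exons listed in both files, 853 met these conditions, in 668 genes. The exons were thus selected on mean ψ and read number, so their middling ψ and their depth are descriptions, and the size that a ψ difference can take depends partly on that choice.

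MDA-LM2 was derived from the human breast cancer line MDA-MB-231 and is selected for metastasis to the lung. The siSNRPB2 cells were transfected with siRNAs against SNRPB2 and the siCtrl cells with control siRNAs, and RNA was taken 48 hours later from both. The submitters measured more than 95% knockdown by qPCR for the 2 siRNAs they selected; their division between libraries is not stated. The labels list 2 libraries per group, while the files hold 1 value per group for each exon. The differences below therefore carry neither a p-value nor a check against replicates. None of the events in both files lay within SNRPB2, and the knockdown was therefore not checked in these values. Of the marker genes fixed for the cell line, reads that fitted the deepest event ranged between 92 (SPARC) and 38883 (CD44) in siSNRPB2 and between 108 and 50227 in siCtrl for mesenchymal genes, against at most 33 in siSNRPB2 and 10 in siCtrl for epithelial genes and 30 in siSNRPB2 and 51 in siCtrl for blood and endothelial genes; VIM, CDH1, EPCAM, GRHL2, PECAM1 and CDH5 had no event.

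SNRPB2 encodes the B″ protein of the U2 small nuclear ribonucleoprotein, the part of the spliceosome that recognises the branch point upstream of each 3′ splice site. A cassette exon whose length is a multiple of 3 can be kept or skipped inside a coding sequence without moving the reading frame downstream. One of another length shifts the frame, and the product often meets an early stop codon and is degraded by nonsense-mediated decay. Cassette exons are known to alter protein segments that contact membranes, the cytoskeleton or other proteins.

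The sequences below are coding exons of genes the results turn on, taken 5′ to 3′ from the GENCODE 29 transcripts (GRCh38). The last 3 exonic bases, which pair with U1 snRNA as part of the 5′ splice site, are in capitals. The first 5 exons had a much lower ψ in siSNRPB2 than in siCtrl.
MON2: atccaactatttgcaCCG
PICALM: aatggcatgcattttccacaaTAC
KDM1A: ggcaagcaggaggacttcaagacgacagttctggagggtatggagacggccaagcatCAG
KIAA1109: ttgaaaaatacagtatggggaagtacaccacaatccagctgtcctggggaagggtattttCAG
DCAF6: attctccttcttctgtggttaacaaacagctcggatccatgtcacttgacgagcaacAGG
The next 6 had a higher ψ in siSNRPB2 than in siCtrl.
PTBP2: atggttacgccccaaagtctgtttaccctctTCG
ABLIM3: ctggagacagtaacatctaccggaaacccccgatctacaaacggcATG
MAP2K7: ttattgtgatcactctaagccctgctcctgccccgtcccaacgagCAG
NAV2: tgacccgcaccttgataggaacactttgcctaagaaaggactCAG
SLMAP: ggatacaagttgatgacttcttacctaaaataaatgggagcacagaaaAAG
SPTAN1: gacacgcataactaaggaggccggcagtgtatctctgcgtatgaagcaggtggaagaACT
The last 4 are deeply covered exons, of which ECT2 was lower in siSNRPB2 and the others differed by 0.01 at most.
ECT2: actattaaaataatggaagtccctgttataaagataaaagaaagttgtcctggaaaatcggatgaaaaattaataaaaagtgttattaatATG
PCBP2: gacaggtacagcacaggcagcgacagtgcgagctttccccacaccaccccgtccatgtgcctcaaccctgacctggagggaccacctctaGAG
CTTN: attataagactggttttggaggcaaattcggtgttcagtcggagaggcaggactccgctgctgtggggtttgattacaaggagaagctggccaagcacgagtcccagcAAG
HNRNPM: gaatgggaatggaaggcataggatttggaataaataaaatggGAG
All of these but the 34-nt PTBP2 exon have a length that is a multiple of 3. The last base was G in 78.9% of the 825 balanced exons with an annotated sequence, in 81.6% of 6162 nearly constitutive exons (mean ψ of at least 0.95) and in 80.3% of 18033 exons measured. The median GC content was 48.9% in balanced exons and 49.2% in all exons measured; it was 48.1% in those lower in siSNRPB2 and 51.7% in those higher in siSNRPB2.

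The 853 exons had a median length of 113 nt, ranging between 12 and 4755 nt. The median intron upstream was 2046 nt long and the median intron downstream 2557 nt. The median exon was covered by 181 informative reads (reads that fit only 1 of the isoforms) in siSNRPB2 and 206 in siCtrl. The authors' interval on ψ had a median width of 0.13 in siSNRPB2 and 0.12 in siCtrl, at a level the headers do not state. Median ψ was 0.41 in siSNRPB2 and 0.43 in siCtrl. At the lower edge of mean ψ, the ANKRD11 and RBM23 exons lay just inside at 0.2, and exons of RBM3 and MAP4K4 just outside at 0.195. At the upper edge, exons of ALDOA and CD46 lay inside at 0.8, and exons of FUT8 and NBPF8 outside at 0.805. MTX1 and PKP4 exons were kept with 40 exclusion-only reads where FAM193B and DCUN1D4 exons had 39, and PDHA1 and FAM13A exons with 40 inclusion-only reads where a pair of overlapping ATXN3 exons had 39.

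The exons are not independent of each other. The 853 exons included 201 that overlapped another and 230 that shared their skipping junction, and so their exclusion-only reads, with another. Counting each such group once left 723 groups. DAG1, which encodes dystroglycan, held 6 of the exons, and GRB10, an adaptor of receptor tyrosine kinases, and MFF, the receptor for the mitochondrial fission enzyme, held 5 each.

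Coding exons of the balanced class preserved the reading frame far more often than coding exons at large. Of 445 balanced exons that lie wholly in coding sequence, 321, or 72.1%, had a length that is a multiple of 3. The same held for 5346 of 10993 coding exons among all exons measured (48.6%; measured exons have at least 20 informative reads per file) and for 2060 of 4874 nearly constitutive coding exons (42.3%). Nearly silent coding exons (mean ψ of at most 0.05) stood at 79.0%, 601 of 761. The rule used neither length nor annotation, but GENCODE's division into coding and decay transcripts itself depends on reading frame, and its part in these shares was not tested. Of the 96 balanced exons found only in transcripts annotated for nonsense-mediated decay, 28.1% were multiples of 3, and of the 120 in 5′ untranslated regions 24.2%. Over all 853 exons, coding or not, the share was 51.2%, against 41.8% of 18682 exons measured.

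**Figure D1:**
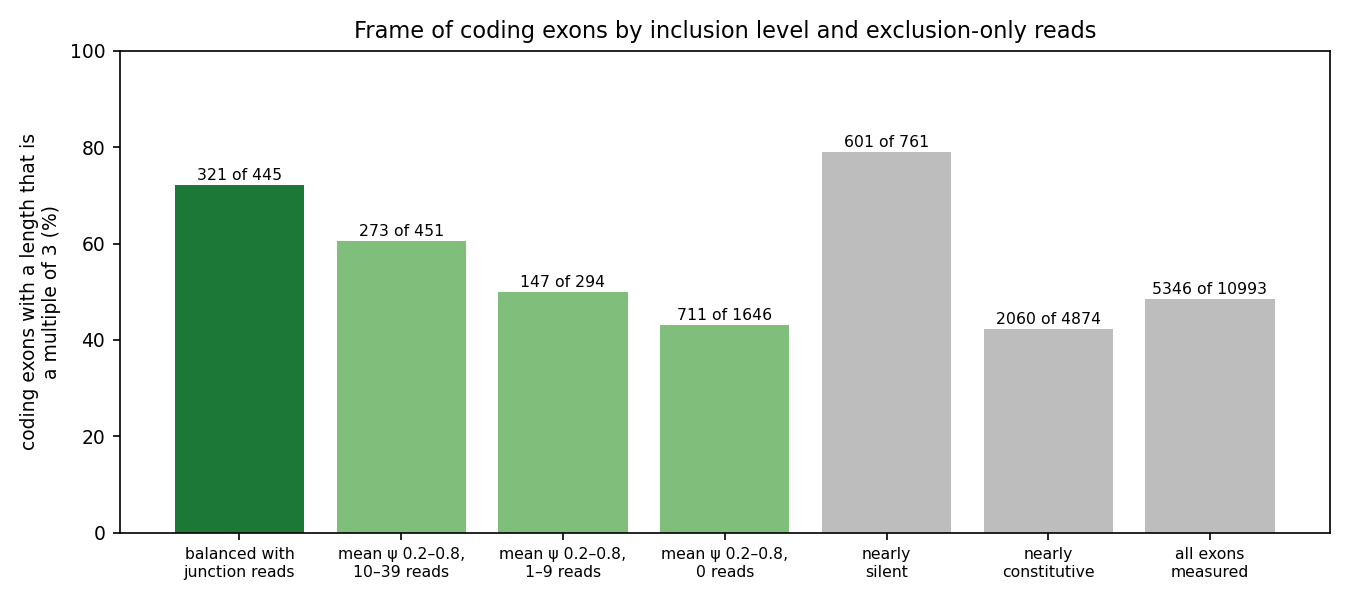
Percentage of coding exons with a length that is a multiple of 3 (bars; counts above them). Balanced exons with at least 40 exclusion-only and 40 inclusion-only reads are in dark green; light green bars are other exons of mean ψ 0.2 to 0.8 by number of exclusion-only reads; grey bars are nearly silent, nearly constitutive and all measured exons. The share was 72.1% in the dark green bar, 60.5%, 50.0% and 43.2% in the light green bars, and 42.3% in nearly constitutive exons.

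The number of reads that skip the exon ordered this share. Among coding exons of mean ψ between 0.2 and 0.8, 43.2% of the 1646 with no exclusion-only read were multiples of 3, close to nearly constitutive exons. The share was 50.0% of 294 with 1 to 9 such reads, 60.5% of 451 with 10 to 39, 66.4% of the 241 balanced exons with 40 to 99 and 78.9% of the 204 with 100 or more. A middling ψ without a skipping read thus came with the frame pattern of constitutive exons. Within the balanced class the share was 78.9% of coding exons under 60 nt and 62.3% of those of 180 nt or more, where all coding exons measured had 61.4% and 47.7%. It was 78.4% at a mean ψ below 0.4 and 66.4% above 0.6.

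Balanced coding exons called between siSNRPB2 and siCtrl held about the same share of multiples of 3 as those not called. Here an exon is called where the authors' Bayes factor (the evidence for a difference in ψ over none) was at least 10 and ψ differed by at least 0.1. Among coding balanced exons, 44.9% of those that are multiples of 3 were called, and 44.4% of the others. The multiple-of-3 share was 72.0% of coding exons called lower in siSNRPB2, 73.1% of those called higher and 72.0% of those not called. Over all balanced exons, coding or not, the multiple-of-3 share was 57.7% of those called lower in siSNRPB2. It was 52.1% of those called higher and 48.2% of those not called. Of balanced exons that are multiples of 3, 45.5% were called, against 38.5% of the others. These shares were 16% and 13.8% over all exons measured, and 42.2% and 40.2% in the other exons of mean ψ 0.2 to 0.8. For coding exons they were 16.5% and 13.6% over all measured, and 43.1% and 39.6% in those other exons.

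More balanced exons were lower than higher in siSNRPB2. Of 853, 213 were called lower in siSNRPB2 than in siCtrl (25%) and 146 higher (17.1%); over all exons measured, 7.61% were called lower, 7.13% higher and 14.7% in either direction. The share called is not a result about these exons, since a large difference by itself yields a middling mean: of 3730 other exons of mean ψ 0.2 to 0.8, 41.1% were called, against 42.1% of the balanced exons with junction reads. The direction leaned more to the lower side: 59.3% of the calls were lower, against 52.0% in the other exons of middling ψ and 51.6% in all exons measured. By depth, 48.9% of calls were lower in balanced exons with under 200 informative reads, 61.2% with 200 to under 500, 66.0% with 500 to under 2000 and 57.1% with 2000 or more. The median ψ difference was -0.02. It reached at least 0.3 in 118 called exons and at least 0.5 in 25, 12 lower and 13 higher; 225 exons differed by 0.05 at most.

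**Figure D2:**
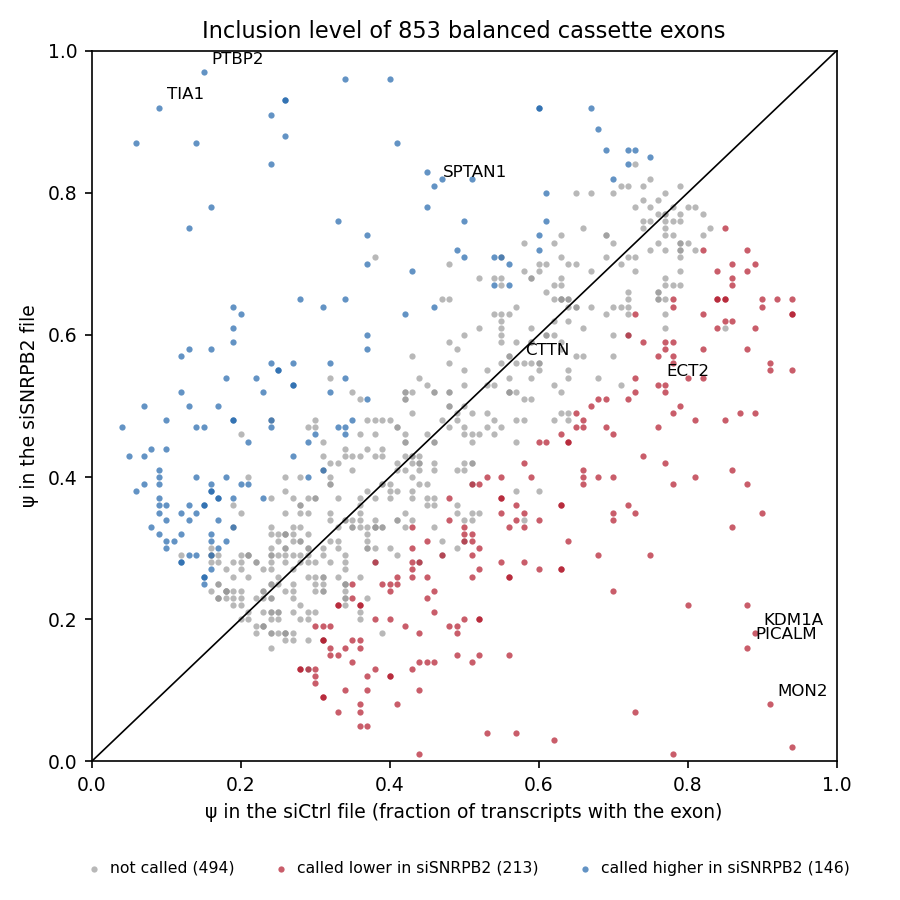
ψ of the 853 balanced cassette exons in the siSNRPB2 file (vertical axis) against the siCtrl file (horizontal axis), with equal values on the line. Red points are the 213 exons called lower in siSNRPB2, blue points the 146 called higher and grey points the 494 not called; the empty corners at lower left and upper right follow from the bounds on mean ψ.

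The reads themselves gave much the same picture as plain counts. The read share is the part of informative reads that fit inclusion, and it was called where it differed by at least 0.1 with separate exact (Clopper-Pearson) 95% intervals, which cover counting error only. It was lower in siSNRPB2 in 199 exons and higher in 153, with 4.95% lower and 4.95% higher over all exons measured. Of the exons called by ψ, 163 were also lower and 113 also higher by read share, and none was called in opposite directions. Across the 853 exons the ψ difference and the read share difference had a Pearson r of 0.89 and a Spearman correlation of 0.88, a description of values that come from the same reads. These intervals do not cover differences between libraries. The spread between the files was taken from 4582 nearly constitutive exons without a skipping read. Their split between inclusion-only reads and reads that fit both isoforms gave a median chi-square 9.94 times that of counting error. This ratio is the noise factor. With 1 value per group, it cannot tell differences between libraries from an effect of the knockdown. It also comes from another split of reads than the read share. With reads divided by the noise factor, 12 exons stayed lower and 8 higher.

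Those 20 exons are the ones whose intervals stayed separate after this division, and they were picked after their values were seen. The division favours deep exons: the 20 had at least 263 informative reads and a median of 832, against a median of 389 in all balanced exons. RPS24 stayed with a read share difference of -0.101 on 11427 informative reads, while the SLC15A3 exon given below, with -0.966 on 107, did not. Lower in siSNRPB2 were exons of POLE2, a subunit of DNA polymerase epsilon, TCF7L2, a transcription factor of the Wnt pathway, MELK, a mitotic kinase, KDM1A, RHBDD2, ECT2, TCF3, FBXW11, ANKRD11, RPS24 and a pair in NIPA2. The POLE2 exon (78 nt) had 14 inclusion and 55 skipping reads in siSNRPB2, with 183 and 14 in siCtrl. The TCF7L2 exon (69 nt) had 9 and 120 in siSNRPB2, with 130 and 56 in siCtrl, and its ψ was 0.04 in siSNRPB2 and 0.57 in siCtrl. Higher in siSNRPB2 were exons of SPTAN1, DLGAP5, ABLIM3, PICALM and PTBP2 and 3 overlapping forms of 1 exon of TCF3. The DLGAP5 exon (91 nt), of a mitotic spindle protein, had 295 and 181 reads in siSNRPB2, with 75 and 276 in siCtrl. Of the 20, 16 were also called by ψ in the same direction; the exceptions were RPS24 and the 3 TCF3 forms.

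The largest losses of inclusion included short coding exons and 5′ untranslated exons. Short coding exons, of 34 to 51 nt, were also among the largest gains given below. The 169-nt exon of SLC15A3, a lysosomal peptide and histidine transporter (chr11:60941122-60941290), had a ψ of 0.02 in siSNRPB2 and 0.94 in siCtrl. It had 2 inclusion and 56 skipping reads in siSNRPB2, with 49 and 0 in siCtrl; 0 of 49 allows a skipped share of up to 6.12%. The 18-nt exon of MON2 (chr12:62566014-62566031), a protein of Golgi and endosome trafficking, had 4 and 46 reads in siSNRPB2, with 44 and 3 in siCtrl. Its ψ was 0.08 (interval 0.02 to 0.17) in siSNRPB2 and 0.91 (0.82 to 0.97) in siCtrl. Each of these exons was thus mostly skipped in 1 file and mostly kept in the other.

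The 60-nt exon of KDM1A (chr1:23044427-23044486), which encodes the histone demethylase LSD1, had a ψ of 0.18 (0.14 to 0.24) in siSNRPB2 and 0.89 (0.79 to 0.96) in siCtrl. It had 49 inclusion and 49 skipping reads in siSNRPB2, a read share of 0.5, with 205 and 1 in siCtrl. The 106-nt exon of ZNF268, a zinc finger gene, had no inclusion-only read among 32 informative reads in siSNRPB2, against 89 among 99 in siCtrl; 0 of 32 allows an inclusion share of up to 9.38%. Its ψ was 0.01 in siSNRPB2 and 0.78 in siCtrl. KIAA1109, a large lipid transfer protein, had a 63-nt exon (chr4:122325855-122325917) at 0.22 in siSNRPB2 and 0.88 in siCtrl. DCAF6, a substrate receptor of cullin 4 ubiquitin ligases, had a 60-nt exon (chr1:168022988-168023047) at 0.03 in siSNRPB2 and 0.62 in siCtrl. In 5′ untranslated sequence, an exon of PRKCD, the protein kinase C delta gene, was at 0.07 in siSNRPB2 and 0.73 in siCtrl, and an exon of RHBDD2, a rhomboid-like membrane protein, at 0.22 in siSNRPB2 and 0.80 in siCtrl. LACC1 had a 204-nt exon that GENCODE 29 does not list, at 0.35 in siSNRPB2 and 0.90 in siCtrl. The intervals of the files were apart for each of these exons.

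The largest gains included exons of RNA-binding protein genes. PTBP2, a paralogue of the splicing repressor PTBP1, had a 34-nt exon (chr1:96806419-96806452) with a ψ of 0.97 (0.93 to 0.99) in siSNRPB2 and 0.15 (0.08 to 0.24) in siCtrl. It had 190 inclusion and 4 skipping reads in siSNRPB2, with 11 and 58 in siCtrl. Skipping of the PTBP2 exon shifts the reading frame, since its length is no multiple of 3. TIA1, which binds U-rich sequence downstream of 5′ splice sites, had an exon found only in decay transcripts at 0.92 in siSNRPB2 and 0.09 in siCtrl. Its reads were few, 48 and 0 in siSNRPB2 and 20 and 46 in siCtrl, and the siSNRPB2 interval ran between 0.73 and 0.99.

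Other large gains lay in genes of varied function. The 48-nt exon of ABLIM3 (chr5:149242491-149242538), an actin-binding LIM protein, had a ψ of 0.75 (0.67 to 0.82) in siSNRPB2 and 0.13 (0.09 to 0.18) in siCtrl. The 48-nt exon of MAP2K7 (chr19:7905808-7905855), a kinase that activates JNK, stood at 0.88 in siSNRPB2 and 0.26 in siCtrl. The 45-nt exon of NAV2, a microtubule-associated neuron navigator protein, was at 0.96 in siSNRPB2 and 0.34 in siCtrl, and the 51-nt exon of SLMAP, a tail-anchored membrane protein, at 0.93 in siSNRPB2 and 0.26 in siCtrl. A 96-nt exon of ZNF618 stood at 0.87 in siSNRPB2 and 0.06 in siCtrl, with 44 and 0 reads in siSNRPB2 and 8 and 44 in siCtrl. SYNRG, an adaptor-binding protein of clathrin coats, PRUNE1, a phosphatase of short-chain polyphosphates, and FRMD4A, a FERM domain scaffold, also gained an exon, with ψ in siSNRPB2 between 0.78 and 0.93 and in siCtrl between 0.14 and 0.26. The FRMD4A interval in siSNRPB2 was wide, between 0.55 and 1.00.

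**Figure D3:**
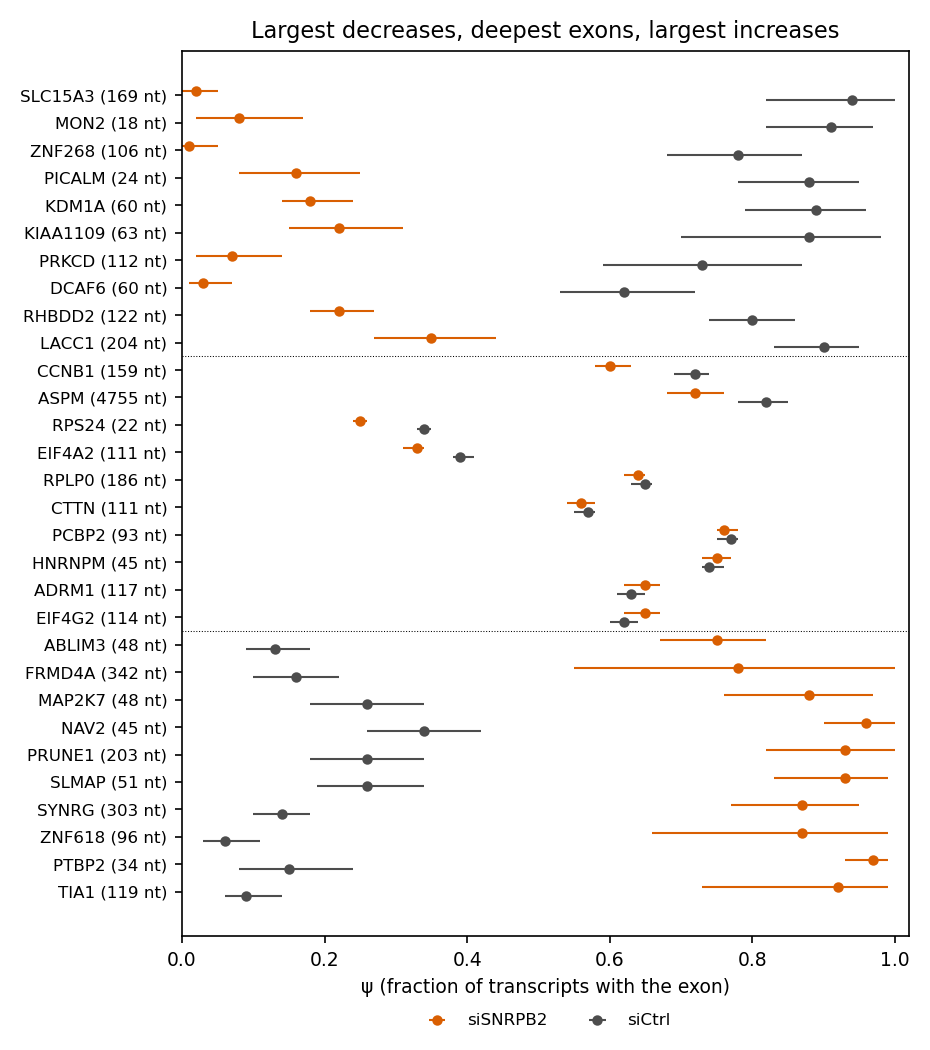
ψ of 30 balanced exons in siSNRPB2 (orange) and siCtrl (grey), with the authors' intervals as bars: the largest decreases (top), the exons with the most informative reads, 1 per gene (middle) and the largest increases (bottom). In the top and bottom groups the intervals of the files do not meet; among the 10 exons of the middle group no ψ differed by more than 0.12.

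PICALM, a clathrin assembly protein, had balanced exons that went in opposite directions, a contrast chosen after their values were seen. Its 24-nt exon (chr11:85978070-85978093) had a ψ of 0.16 (0.08 to 0.25) in siSNRPB2 and 0.88 (0.78 to 0.95) in siCtrl. A 150-nt exon further upstream in the gene (chr11:85990250-85990399) had 0.35 in siSNRPB2 and 0.09 in siCtrl, and a 129-nt form of it 0.38 in siSNRPB2 and 0.16 in siCtrl. These longer forms overlap and share their skipping reads, 17 in siSNRPB2 and 125 in siCtrl. All 3 lengths are multiples of 3.

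The most deeply covered exons, taken as the 10 with the most informative reads at 1 per gene, differed by at most 0.12 in ψ. That choice leaves out a 217-nt form of the RPLP0 exon, at 0.45 in siSNRPB2 and 0.46 in siCtrl, which has more reads than most of the others. The 93-nt exon of PCBP2, a poly(C)-binding protein, had a ψ of 0.76 in siSNRPB2 and 0.77 in siCtrl, on 3955 informative reads in siSNRPB2 and 5568 in siCtrl. The 111-nt exon of CTTN, which encodes an actin-binding repeat of cortactin, stood at 0.56 in siSNRPB2 and 0.57 in siCtrl, and the 45-nt exon of HNRNPM, an hnRNP splicing factor, at 0.75 in siSNRPB2 and 0.74 in siCtrl. ADRM1, a ubiquitin receptor of the proteasome, was at 0.65 in siSNRPB2 and 0.63 in siCtrl. RPS24, a protein of the small ribosomal subunit, had a 22-nt exon with 1603 inclusion and 3563 skipping reads in siSNRPB2 and 2576 and 3685 in siCtrl; its ψ was 0.25 in siSNRPB2 and 0.34 in siCtrl, short of the 0.1 asked of a call. EIF4A2, a translation initiation helicase, had a 111-nt exon at 0.33 (0.31 to 0.34) in siSNRPB2 and 0.39 (0.38 to 0.41) in siCtrl, intervals that do not meet. Of these 10 exons, those of CCNB1, the mitotic cyclin B1, and ASPM, a spindle pole protein, were called by ψ, both lower in siSNRPB2. Neither was called by read share, which was 0.979 and 0.994 in siSNRPB2, against 0.996 and 0.998 in siCtrl.

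Short exons leaned to skipping and long ones did not, taken over all regions together. Coding exons of 180 nt or more differed from this, with 15 called lower and 10 higher. Among balanced exons under 60 nt, 43 of 121 were called lower in siSNRPB2 and 17 higher. By frame, 33 were lower and 10 higher of the 84 multiples of 3, and 10 lower and 7 higher of the 37 others. From 60 to under 120 nt, 95 were lower and 49 higher of 334, and from 120 to under 180 nt, 47 were lower and 41 higher of 241. At 180 nt or more, 28 were lower and 39 higher of 157. The lower part of the calls was thus 71.7%, 66.0%, 53.4% and 41.8% in order of length. It ran the same way over all exons measured, at 64.4%, 53.5%, 51.3% and 44.5%, and over the other exons of mean ψ 0.2 to 0.8, at 59.6%, 54.3%, 52.2% and 46.8%. Those other exons are no independent set, since they come from the same files and can overlap balanced exons or share their skipping junctions. Of the 3730, 2322 had no exclusion-only read. The read share gave 64.6%, 64.8%, 47.3% and 39.2%. With at least 100 reads of each class the ψ calls gave 63.6%, 69.2%, 58.1% and 40%, so the shortest class was no longer the highest. At a mean ψ of 0.3 to 0.7 they gave 73.7%, 64.5%, 56.9% and 52.4%. Among the 20 exons left after division by the noise factor, 1 was lower and 2 higher under 60 nt, and 1 lower and 3 higher at 180 nt or more. Exon length and ψ difference had a Spearman correlation of 0.17 over the 853 exons.

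**Figure D4:**
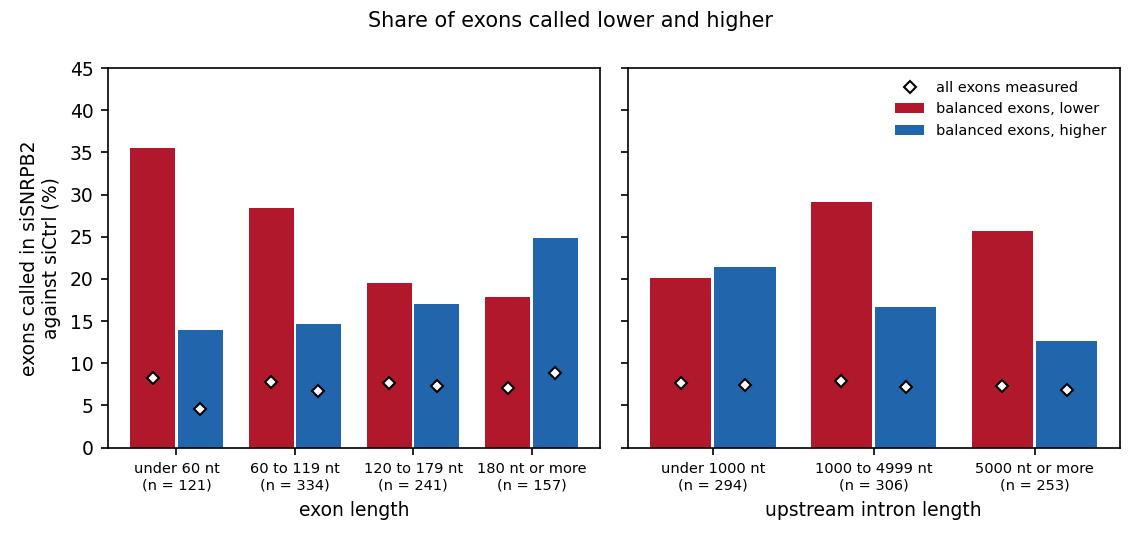
Percentage of exons called lower (red) and higher (blue) in siSNRPB2 against siCtrl, by exon length (left) and by length of the upstream intron (right), for balanced exons (bars) and all exons measured (diamonds). Lower calls made up 35.5% of balanced exons under 60 nt and 17.8% of those of 180 nt or more, and higher calls 14% and 24.8%.

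The very short exons show this in named genes, chosen here after their values were seen. The 12-nt exon of SUPT5H, a transcription elongation factor, had a ψ of 0.55 in siSNRPB2 and 0.94 in siCtrl. The 24-nt exon of RFFL, a ubiquitin ligase, stood at 0.49 in siSNRPB2 and 0.89 in siCtrl. The 27-nt exons of MARK3, a microtubule affinity regulating kinase, and ROBO1, the Slit receptor, stood at 0.14 and 0.36 in siSNRPB2, against 0.46 and 0.63 in siCtrl. Others moved little: the 23-nt exon of SNRPG, an Sm core protein of snRNPs, was at 0.78 in both files, and the 21-nt exon of KIF21A, a kinesin, at 0.28 in siSNRPB2 and 0.24 in siCtrl. Of the 22 balanced exons of 30 nt or less, none was called higher by ψ. Such calls were few in short exons at large: 14% of balanced exons under 60 nt and 4.57% of all exons measured under 60 nt. The read share was called higher in siSNRPB2 for exons of MRPL42 (20 nt) and AXL (27 nt).

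Intron length went with the direction less firmly. With an upstream intron under 1000 nt, 59 exons were called lower in siSNRPB2 and 63 higher of 294. From 1000 to under 5000 nt, 89 were lower and 51 higher of 306, and at 5000 nt or more, 65 were lower and 32 higher of 253. Over all exons measured the lower part of the calls was near even in these classes, at 50.7%, 52.3% and 51.8%, and in the other exons of middling ψ it was 53.6%, 52.2% and 49.8%. Among the 361 balanced exons with at least 100 reads of each class the pattern was gone, with 64.1%, 57.1% and 63.4% of calls lower. By the downstream intron, 54 exons were lower and 45 higher of 239 under 1000 nt, and 80 lower and 46 higher of 279 at 5000 nt or more.

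The calls also differed by region. Of 445 coding balanced exons, 132 were called lower in siSNRPB2 and 67 higher. Of 120 in 5′ untranslated sequence, 29 were lower and 25 higher. Of 96 in decay transcripts, 19 were lower and 17 higher, and of 84 in non-coding transcripts, 14 were lower and 16 higher. Over all exons measured, 900 were lower and 749 higher of 10993 coding exons, 144 lower and 137 higher of 1497 in 5′ untranslated sequence, 135 lower and 154 higher of 2265 in decay transcripts and 124 lower and 149 higher of 1838 in non-coding transcripts. Coding exons were also shorter, with a median of 96 nt against 122 nt in 5′ untranslated sequence and 140 nt in decay transcripts. Within coding exons the calls were 36 lower and 14 higher under 60 nt, and 15 lower and 10 higher at 180 nt or more.

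Trafficking and cytoskeletal genes held called exons in both directions. Of 19 balanced exons in genes of membrane trafficking and endocytosis, 5 were called lower in siSNRPB2 and 7 higher, with a median ψ difference of 0.03. SNAP23, a SNARE of plasma membrane fusion, had a 159-nt exon at 0.70 in siSNRPB2 and 0.86 in siCtrl. TPD52L2, a vesicle trafficking protein, had a 60-nt exon at 0.64 in siSNRPB2 and 0.78 in siCtrl. Of 22 exons in genes of the cytoskeleton and adhesion, 4 were lower and 7 higher, with a median of 0.01. All 16 coding exons among them were multiples of 3, beside 72.1% of all coding balanced exons. The same held for 9 of 9 coding exons in the list of kinases, phosphatases and signalling and 12 of 14 in trafficking. It held for 14 of 18 in chromatin and transcription, 9 of 13 in splicing and RNA binding and 4 of 5 in cell cycle, DNA repair and apoptosis. SPTAN1, which encodes the αII chain of spectrin, had a 60-nt exon (chr9:128592983-128593042) with 1263 inclusion and 197 skipping reads in siSNRPB2, with 623 and 422 in siCtrl. Its ψ was 0.81 (0.79 to 0.83) in siSNRPB2 and 0.46 (0.43 to 0.49) in siCtrl. MPRIP, which targets myosin phosphatase to actin, had a 63-nt exon at 0.25 in siSNRPB2 and 0.35 in siCtrl.

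Of 30 exons in genes of splicing and RNA binding, 4 were lower and 7 higher in siSNRPB2, with a median of 0.02. Beside PTBP2 and TIA1, the deepest were those of PCBP2, HNRNPDL and HNRNPK. The 105-nt HNRNPDL exon, found in decay transcripts, stood at 0.29 in siSNRPB2 and 0.24 in siCtrl, and the 72-nt HNRNPK exon at 0.66 in siSNRPB2 and 0.61 in siCtrl; neither was called. Over all 853 balanced exons the median ψ difference was -0.02 and 42.1% were called, against a median of 0.00 and 14.7% called over all 18682 exons measured; the shares of these lists stand beside the 42.1%, and no difference from it was tested.

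In genes of chromatin and transcription, 9 of 25 exons were lower in siSNRPB2 and 4 higher, with a median of -0.05. The 227-nt coding exon of TCF3, an E protein transcription factor, had 651 inclusion and 319 skipping reads in siSNRPB2, with 896 and 136 in siCtrl, and ψ of 0.45 in siSNRPB2 and 0.64 in siCtrl. NASP, a histone chaperone, and SETD5, a SET domain protein, differed by 0.05 and 0.04 and were not called. In genes of kinases, phosphatases and signalling, 3 of 17 were lower and 5 higher, with a median of 0.05. WNK1, a kinase of ion transport, had a 459-nt exon at 0.69 in siSNRPB2 and 0.43 in siCtrl. AKT2 had a 130-nt exon at 0.69 in siSNRPB2 and 0.88 in siCtrl, while MAP4K4 stood at 0.55 in siSNRPB2 and 0.50 in siCtrl.

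Of 5 exons in genes of the cell cycle, DNA repair and apoptosis, 2 were called, both lower in siSNRPB2. The 93-nt exon of ECT2 (chr3:172755483-172755575), a guanine nucleotide exchange factor that acts in cytokinesis, had 941 inclusion and 481 skipping reads in siSNRPB2, with 1680 and 309 in siCtrl. Its ψ was 0.53 (0.50 to 0.56) in siSNRPB2 and 0.76 (0.74 to 0.78) in siCtrl. The exons of RIF1, a DNA repair and replication timing factor, at 0.63 in siSNRPB2 and 0.72 in siCtrl, and of CENPE, a kinetochore kinesin, at 0.65 in siSNRPB2 and 0.63 in siCtrl, were not called.

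ψ and the read share measure different things, and the gap between them grew with exon length. A long exon offers more positions for inclusion-only reads, which the plain share does not allow for. The part of this in the gap was not tested. The 24-nt FLNA exon also had a gap, with a read share of 0.951 and a ψ of 0.47 in siSNRPB2. A 175-nt exon of MAVS had 286 inclusion and 0 skipping reads in siSNRPB2, at a ψ of 0.25. The FLNA and MAVS exons were chosen after their values were seen. The share exceeded ψ by a median of 0.115 in siSNRPB2 and 0.116 in siCtrl for exons under 60 nt, and by 0.341 in siSNRPB2 and 0.334 in siCtrl for exons of 180 nt or more. In 22 exons, of a median 246 nt, at least 0.95 of the informative reads in each file fitted only inclusion while ψ stayed in the middle. ASPM had a 4755-nt exon with 10296 inclusion and 64 skipping reads in siSNRPB2, with 14602 and 36 in siCtrl, at ψ of 0.72 in siSNRPB2 and 0.82 in siCtrl. Just outside these 22, with a read share of 1 in siSNRPB2 and 0.941 in siCtrl, the 342-nt exon of SEC31A, a COPII coat protein, had 993 and 0 reads in siSNRPB2 and 1191 and 75 in siCtrl, yet ψ was 0.43 in siSNRPB2 and 0.39 in siCtrl. A RPLP0 exon, of a ribosomal stalk protein, had 8194 and 94 reads in siSNRPB2 and 9753 and 31 in siCtrl, at ψ of 0.64 in siSNRPB2 and 0.65 in siCtrl.

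**Figure D5:**
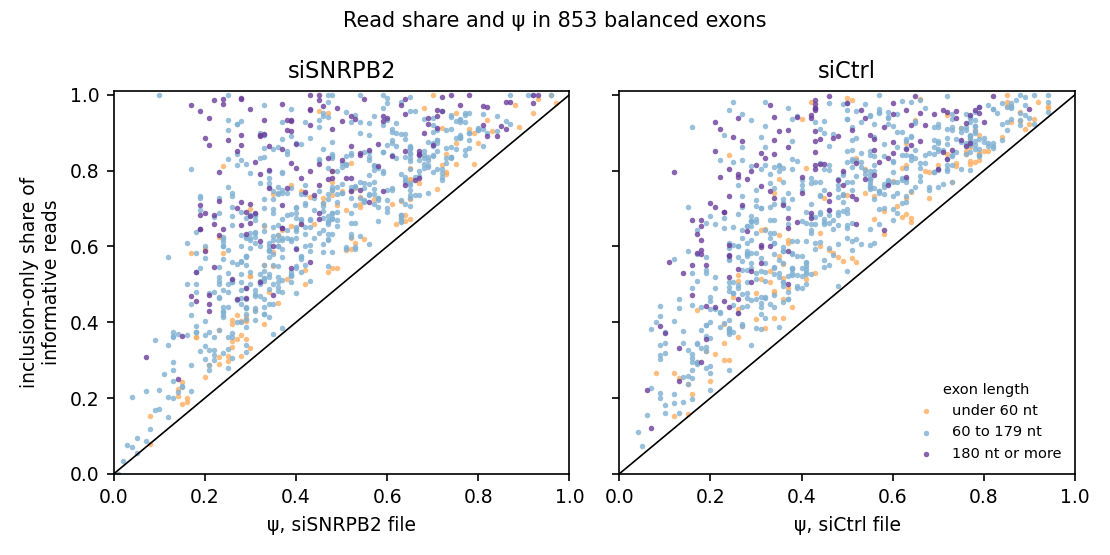
Inclusion-only share of informative reads against ψ for 853 balanced exons in the siSNRPB2 file (left) and the siCtrl file (right), coloured by exon length; the line marks equal values. Nearly all points lie above the line, and exons of 180 nt or more lie farthest from it, with a median gap of 0.341 in siSNRPB2 and 0.334 in siCtrl.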

How the data were processed

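Total RNA of siSNRPB2 and siCtrl MDA-LM2 cells was sequenced in 2 libraries per group, per the labels. The submitters' processing notes name the aligner STAR, version 2.7, and the build hg38. The authors estimated ψ, a fraction, and its interval with MISO, and deposited for each event the read counts per class of fit to the isoforms, per the file headers. The authors' deposited comparison gives the Bayes factor, a ratio of evidence of at most 1e+12. Not given in the sources used here: MISO version, event annotation, interval level and any merging of libraries.

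From these files, exons were selected and grouped with Python 3.11.15, pandas 2.3.3 and scipy 1.17.1. For each exon the event with the most informative reads was kept. Genes, exon classes and sequences came from GENCODE 29. Exact (Clopper-Pearson) 95% intervals of read shares were tested on simulated data; they cover counting error only, since reads without molecular identifiers are not independent molecules, and compare files, not conditions. A share of 0 is given with the limit that 3 counts allow. The noise factor is the median chi-square between files of inclusion-only against fit-both reads, in nearly constitutive exons without exclusion-only reads, over the median that counting error gives.

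The exons and gene lists were chosen with earlier results of these data known. Genes named are the 10 largest called ψ differences per direction in protein-coding genes, the 10 deepest exons (1 per gene), up to 3 deepest per list, the exons at each bound and up to 5 deep exons differing by 0.01 or less; others are said to be chosen later. Alternatives changed the ψ, read and Bayes factor bounds, the noise scaling and the treatment of overlapping exons. Splice site and intron sequences were not analysed here.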

Additional observations from a re-analysis of the deposited data

Results flagged for a closer look

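Reads fitting neither the inclusion nor the exclusion isoform were not used in any comparison above. They made up 47.3% of the reads listed for the balanced exons' events in siSNRPB2 and 45.8% in siCtrl, and their share was higher in siSNRPB2 in 520 of 853 exons. It was higher in siSNRPB2 in 131 of the 213 exons called lower and in 82 of the 146 called higher. Over all events in both files the shares were 60.6% in siSNRPB2 and 58.4% in siCtrl. With 1 value per group, the difference has no replicate check, and its part in the ψ differences was not tested.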

How the results depend on the processing

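No paired analysis was possible because the files hold 1 value per group. The number of balanced exons called, 359, moved to 227 (126 lower, 101 higher in siSNRPB2) with a ψ difference of at least 0.2, to 224 (139 and 85) with mean ψ of 0.3 to 0.7, to 143 (87 and 56) with at least 100 reads of each class and to 649 (363 and 286) with at least 20. Lower calls outnumbered higher ones under each of these. The 352 read share calls moved to 20 (12 lower, 8 higher) with reads divided by the noise factor, to 234 (122 and 112) with a difference of at least 0.2 and to 140 (80 and 60) with at least 100 reads of each class. With a ψ difference of at least 0.2, the share called moved to 28.1% of exons that are multiples of 3, the share lower to 24.8% of exons under 60 nt, and the share higher to 16.3% of exons with an upstream intron under 1000 nt; with at least 100 reads the last was 12%. The share of exons that are multiples of 3 moved to 72.1% in coding exons, 55.4% with at least 100 reads and 54.8% with 1 exon per skipping junction or overlap, an alternative chosen after seeing the data; coding exons alone then stood at 74.9%. The cause of these moves was not tested beyond the smaller or larger number of exons each leaves. Depth limits single exons: the SAP130 exon, for example, had 14 informative reads in siSNRPB2.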

Other observations

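Some genes held several balanced exons, described here after their values were seen. In VEGFA, the vascular endothelial growth factor A gene, the 72-nt and 54-nt forms of 1 coding exon had ψ of 0.13 and 0.08 in siSNRPB2, against 0.43 and 0.36 in siCtrl. They share their skipping reads, 139 in siSNRPB2 and 96 in siCtrl. A 132-nt exon of VEGFA stood at 0.45 in siSNRPB2 and 0.61 in siCtrl. A 97-nt form of it on the same skipping reads stood at 0.28 in siSNRPB2 and 0.22 in siCtrl and was not called by ψ. The read share was called lower for both forms, and in the 97-nt form it was 0.691 in siSNRPB2 and 0.828 in siCtrl. In FBXW11, a substrate receptor of SCF ubiquitin ligases, 3 exons that share a skipping junction with 122 reads in siSNRPB2 and 21 in siCtrl were lower in siSNRPB2. The 63-nt exon stood at 0.63 in siSNRPB2 and 0.94 in siCtrl, the 102-nt exon at 0.29 in siSNRPB2 and 0.68 in siCtrl, and the 130-nt exon at 0.12 in siSNRPB2 and 0.30 in siCtrl. In MFF, a 159-nt exon was at 0.71 in siSNRPB2 and 0.55 in siCtrl, while exons of 75 and 60 nt that share its skipping junction were not called. In NIPA2, a magnesium transporter, 5′ untranslated exons of 136 and 122 nt share their skipping reads, 108 in siSNRPB2 and 5 in siCtrl. Their ψ was 0.31 and 0.12 in siSNRPB2, against 0.64 and 0.37 in siCtrl. A 113-nt exon on the same reads stood at 0.25 in siSNRPB2 and 0.27 in siCtrl and was not called by ψ. For this 113-nt exon the read share, 0.53 in siSNRPB2 against 0.95 in siCtrl, did count as a lower call.

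In 9 exons called by ψ the read share differed the other way. The exons named here were chosen after their values were seen. The 105-nt exon of SAP130, a subunit of the Sin3A repressor complex, had a ψ of 0.10 in siSNRPB2 and 0.37 in siCtrl, but 14 inclusion and 0 skipping reads in siSNRPB2, with 101 and 43 in siCtrl. The 24-nt exon of FLNA, the actin cross-linker filamin A, had a ψ of 0.47 in siSNRPB2 and 0.65 in siCtrl, and a read share of 0.951 in siSNRPB2 and 0.934 in siCtrl. Among exons not called by ψ, the 124-nt exon of DMXL1 had the largest read share difference, with 17 inclusion and 68 skipping reads in siSNRPB2 and 30 and 7 in siCtrl, at ψ of 0.13 in siSNRPB2 and 0.29 in siCtrl. The 3 overlapping forms of a TCF3 exon had 4 skipping reads in siSNRPB2 and 176 in siCtrl, with ψ differing by 0.02 at most.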
